A study of Mus musculus with 8 samples.

Results

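The calcium, calcineurin and NFAT genes of mouse follicular B cells were followed across 8 single-colour oligonucleotide arrays. The members were all probe sets whose platform gene symbol was Nfatc1, Ppp3ca, Ppp3cb, Itpr1, Itpr2, Atp2a2, Atp2a3 or Camk4. This gave 12 of 12488 probe sets, in 7 of the 8 genes and of the 8252 genes that the arrays name. Itpr1 was the name of no probe set in the annotation used and was not analysed here. Itpr2 had 4 probe sets and Atp2a3 had 3, and each of the other 5 genes had 1. A probe set is a group of short oligos that together measure a transcript, and its signal is a brightness in linear units that has no common scale between probe sets.

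The surface receptor of all these B cells bound hen egg lysozyme (HEL), the antigen used here. In IgMG cells the extracellular spacer, the transmembrane part and the cytoplasmic part of the IgM receptor had been exchanged for those of IgG1, and IgM cells carried the receptor with its own IgM parts. The 4 groups of 2 arrays were IgMG cells with HEL, unstimulated IgMG cells, IgM cells with HEL and unstimulated IgM cells. Mouse strain, age, the way the receptors were introduced and the dose and length of stimulation were not stated by the labels. Each IgMG array pooled 5 to 8 mice from 2 or 3 sorts, and each IgM array 2 or 4 mice from 1 or 2 sorts. Receptor and number of mice therefore cannot be told apart, and the number of sorts also varied with the receptor. The labels do not say whether replicates shared mice, so p-values measure only the spread between these arrays.

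When antigen engages the receptor of a B cell, phospholipase C makes inositol trisphosphate (IP3). IP3 opens IP3 receptors, the products of the Itpr genes, and calcium leaves the endoplasmic reticulum; calcium channels of the plasma membrane then open, and the SERCA pumps made from Atp2a2 and Atp2a3 carry calcium back into the reticulum. Calcium with calmodulin activates the phosphatase calcineurin, whose catalytic subunits include those of Ppp3ca and Ppp3cb, and also kinases such as that of Camk4. Calcineurin removes phosphate from NFAT proteins, of which Nfatc1 is a member, and these enter the nucleus and act on genes such as Egr2, Tnf and Ccl3 in lymphocytes.

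Promoter sequences bear on this set because the core of the NFAT binding site is short and known. Windows of 250 bases upstream of the transcription start were taken from RefSeq (GRCm38.p6) for 3 of the 8 members and, for comparison, for the known NFAT targets Tnf and Ccl3, whose levels are given further on. Each is printed 5′ to 3′ on the strand of the gene, with GGAAA or its reverse complement TTTCC in capitals, and the motif was searched on both strands.
Ppp3cb, chr14:20546574-20546823, minus strand: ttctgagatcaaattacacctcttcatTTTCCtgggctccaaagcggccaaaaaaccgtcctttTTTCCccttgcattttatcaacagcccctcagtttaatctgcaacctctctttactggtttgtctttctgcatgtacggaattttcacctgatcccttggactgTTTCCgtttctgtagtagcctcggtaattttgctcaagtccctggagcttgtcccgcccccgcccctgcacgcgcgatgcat
Itpr2, chr6:146502224-146502473, minus strand: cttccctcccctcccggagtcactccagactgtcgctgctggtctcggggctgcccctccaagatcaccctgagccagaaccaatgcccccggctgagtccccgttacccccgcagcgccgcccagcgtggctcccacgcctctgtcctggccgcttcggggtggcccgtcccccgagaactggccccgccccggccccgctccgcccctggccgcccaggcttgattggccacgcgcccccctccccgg
Atp2a3, chr11:72960919-72961168, plus strand: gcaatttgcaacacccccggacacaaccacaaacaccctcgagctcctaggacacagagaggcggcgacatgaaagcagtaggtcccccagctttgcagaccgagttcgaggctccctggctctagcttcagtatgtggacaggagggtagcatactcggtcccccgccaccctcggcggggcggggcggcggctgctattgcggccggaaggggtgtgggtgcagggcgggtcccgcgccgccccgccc
Tnf, chr17:35202008-35202257, minus strand: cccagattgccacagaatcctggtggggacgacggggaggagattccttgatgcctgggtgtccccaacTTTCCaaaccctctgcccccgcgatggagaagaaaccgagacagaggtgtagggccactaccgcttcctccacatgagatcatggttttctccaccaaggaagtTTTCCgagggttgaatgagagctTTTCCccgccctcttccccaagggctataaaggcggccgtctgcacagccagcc
Ccl3, chr11:83649379-83649628, minus strand: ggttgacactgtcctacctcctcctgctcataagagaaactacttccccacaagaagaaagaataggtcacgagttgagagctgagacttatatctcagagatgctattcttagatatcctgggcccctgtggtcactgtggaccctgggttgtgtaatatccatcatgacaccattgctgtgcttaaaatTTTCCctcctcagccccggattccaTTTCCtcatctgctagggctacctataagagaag
The Ppp3cb window held the motif 3 times, starting 223, 186 and 82 bases upstream of the start. The Itpr2 and Atp2a3 windows held it 0 times. Tnf had 3 matches, starting 181, 77 and 54 bases upstream, and Ccl3 had 2, starting 59 and 34 bases upstream. Of all 32851 promoter windows of this length, 55.6% held the motif at least once, so a match describes the letters and not a site.

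The B cell label fitted its defining markers: 11 of 12 listed B cell markers had a probe set, all 11 were bright enough to be tested, and their summed signal lay between 34829.5 and 44054.2. Markers of other blood cells were held to the same limit, which by design 60% of all probe sets other than controls passed. Of those with a probe set, 7 of 7 erythroid, 19 of 20 myeloid, 6 of 8 NK cell, 4 of 12 T cell and 1 of 5 platelet markers were that bright. The T cell and platelet counts lay below that share. Cd5, 1 of the 4 T cell markers, is also on the list of NFAT targets given further on. Summed erythroid markers had signals of 13221.9 to 21406.6, of which the haemoglobin gene Hba-a1 had 9594.8 to 16616, and summed T cell markers 282.8 to 609.5, with Cd3e at 6.7 to 11.6 and Zap70 at up to 356.8. Of the markers of marginal zone B cells, another kind of B cell than the follicular, 8 of 8 with a probe set were that bright. Their summed signal was 1393.7 to 1848.2 on the IgMG arrays and 1078.4 to 1386.4 on the IgM arrays, ranges that nearly met. The sum was carried mostly by Cd1d1, Dtx1 and Notch2, with median signals of 371, 381 and 279. The part of all these markers in the results was not tested. A pair of arrays stood apart. The second IgM array with HEL had a Gapdh 5′/3′ ratio, a measure of how complete the labelled RNA is, of 0.755, against 0.140 to 0.395 on the other 7. A higher ratio means more complete RNA, so this array stood apart as the most complete by this measure. With HEL the ratio was 0.221 and 0.140 on the IgMG arrays and 0.328 and 0.755 on the IgM arrays. The second unstimulated IgMG array had summed NK cell markers of 2498.5, against 271.8 to 647.9 on the others, and summed myeloid markers of 27503.3, against 5848.9 to 13078.3. In bulk RNA, fewer cells of a type and less RNA per cell cannot be told apart. Of the 12 member probe sets 9, in 6 genes, were among the brightest 60% of probe sets that were tested; the Camk4 probe set and 2 of Itpr2 were not.

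Antigen raised Nfatc1 in cells of either receptor, and it was the one member that rose. Its probe set had signals of 1080.9 and 1157.6 in IgMG cells with HEL, against 182.9 and 147.8 in unstimulated IgMG cells. In IgM cells the signals were 1569.1 and 1470.5 with HEL, against 158.5 and 198.0 without. All 4 arrays with HEL lay above all 4 without, and within the stimulated cells both IgM arrays lay above both IgMG arrays. On the log2(signal + 16) scale, which understates changes of dim probe sets, Nfatc1 rose by 2.65 ± 0.18 (SE) in IgMG cells, with a 95% confidence interval of 2.25 to 3.05 and an adjusted p = 1.15e-04. In IgM cells it rose by 2.99 ± 0.18 (SE), with an interval of 2.59 to 3.39 and an adjusted p = 4.71e-05. These adjusted p-values, like those that follow, come from limma with Benjamini-Hochberg adjustment over all 7453 tested probe sets. Counted from the highest rise, Nfatc1 ranked 18 of 7453 in IgMG cells and 20 of 7453 in IgM cells. A single probe set does not tell the isoforms of Nfatc1 apart.

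**Figure D1:**
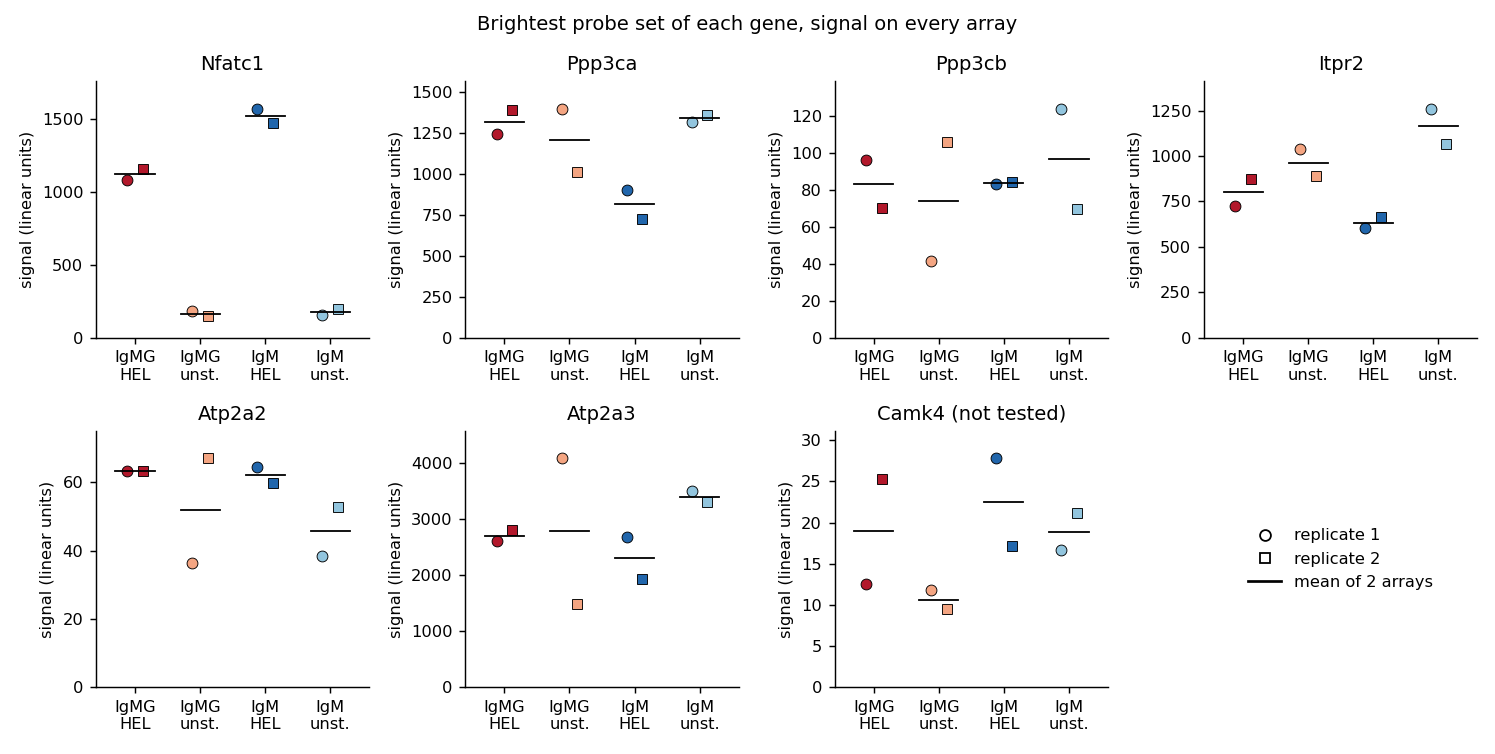
Signal, in linear units, of the brightest probe set of each of the 7 member genes on every array, with a line at the mean of 2 arrays. Nfatc1 is high on all 4 arrays with HEL, Ppp3ca and Itpr2 are lowest in IgM cells with HEL, and for Atp2a3 the second unstimulated IgMG array lies at 1495.2 and the first at 4086.0.

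The Nfatc1 response was not shown to differ between the receptors. The IgMG response minus the IgM response was -0.34 ± 0.25 (SE) on the log2 scale, with an interval of -0.90 to 0.23 and an adjusted p = 0.643. Directly between stimulated cells, the mean signal was 1119 ± 54.2 in IgMG cells and 1520 ± 69.7 in IgM cells (SD, n = 2 each). That log2 difference of -0.44 ± 0.18 (SE) had an unadjusted p = 0.0351 in limma and an adjusted p = 0.321. With the Gapdh ratio, which differed between these groups, as a covariate it was -0.73 ± 0.26 (SE), with an adjusted p = 0.794 in limma. Without HEL the group means were 165 ± 24.8 in IgMG cells and 178 ± 27.9 in IgM cells (SD, n = 2 each), and the arrays overlapped. Their log2 difference was -0.10 ± 0.18 (SE), with an interval of -0.50 to 0.30. In the order of levels, IgM cells with HEL came before IgMG cells with HEL, and the unstimulated groups, which did not separate, came last.

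Of the 9 tested member probe sets 1 rose and 0 fell in IgMG cells, where 5.39% of all tested probe sets were called in either direction. In IgM cells 1 rose and 2 fell, and 14.0% of all tested probe sets were called. By direction, 3.10% of all tested probe sets rose and 2.29% fell in IgMG cells, and 6.70% rose and 7.27% fell in IgM cells. The median log2 change was 0.13 over the members and -0.05 over all tested probe sets in IgMG cells, and -0.13 and -0.02 in IgM cells. The arrays with HEL and those without did not overlap for 3 of the 9 in IgMG cells and 5 of the 9 in IgM cells, and over all tested probe sets for 53.1% in IgMG cells and 58.2% in IgM cells. With so few probe sets, some of them of the same gene, these shares are given as a description. Without the first unstimulated IgM array the count in IgM cells was 1 of 9, Nfatc1 alone, and with both arrays that stand apart left out the count in IgMG cells was 2.

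**Figure D2:**
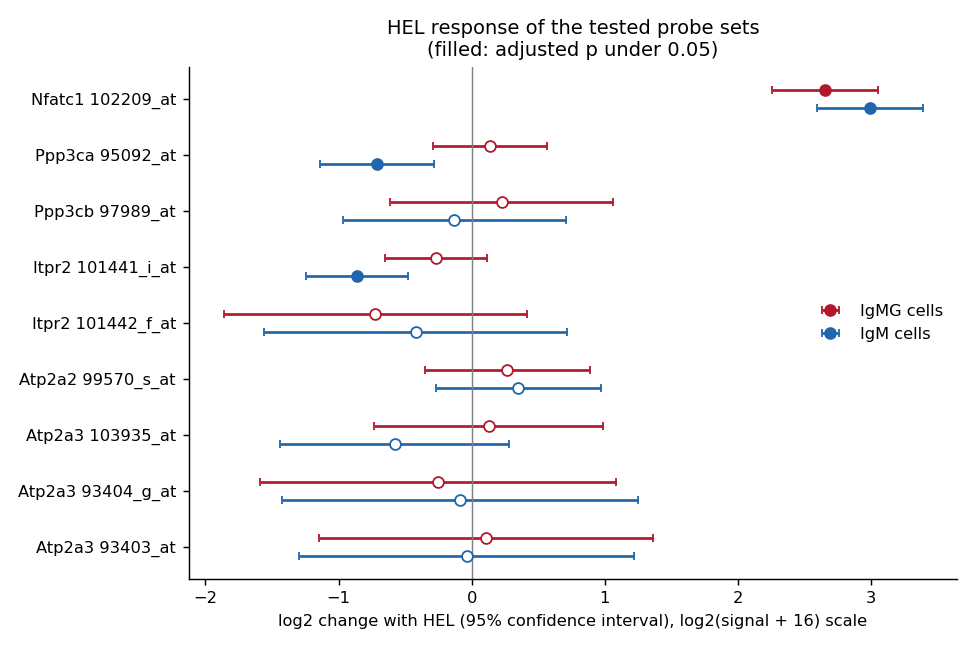
Log2 change with HEL of the 9 tested member probe sets in IgMG cells and in IgM cells, with 95% confidence intervals from limma and filled points where the adjusted p was under 0.05. Nfatc1 stands clear of 0 in either kind of cell, the intervals of Ppp3ca and of Itpr2 101441_i_at lie below 0 in IgM cells and span 0 in IgMG cells, and the other intervals span 0.

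The calcineurin catalytic subunit genes among the members, Ppp3ca and Ppp3cb, did not rise with Nfatc1. Ppp3ca, the alpha subunit, had signals of 1242.5 and 1388.4 in IgMG cells with HEL, against 1399.4 and 1013.8 in unstimulated IgMG cells. In IgM cells it had 904.0 and 727.5 with HEL, against 1316.0 and 1362.8 without. The stimulated IgM arrays were the lowest of all 8, and the IgMG groups overlapped. Ppp3ca fell by 0.71 ± 0.19 (SE) on the log2 scale in IgM cells, with an interval of -1.14 to -0.29 and an adjusted p = 0.0376. In IgMG cells the log2 change was 0.14 ± 0.19 (SE), with an interval of -0.29 to 0.57 and an adjusted p = 0.732.

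The Ppp3ca call in IgM cells was close to the threshold, and it was lost in 12 of 21 alternative analyses, with an adjusted p between 0.0164 and 0.205 over all of them. Leaving out 1 array ended it for either unstimulated IgM array (adjusted p = 0.144 and 0.148), for the second IgM array with HEL and for either IgMG array with HEL (adjusted p = 0.0693 and 0.0697). Its lowest signal was on the second IgM array with HEL, the one with the Gapdh ratio of 0.755. Without that array the log2 change in IgM cells was -0.56, with an adjusted p = 0.205, and with the Gapdh ratio as a covariate it was -0.50, with an adjusted p = 0.108. The fit with the replicate number as a block gave an adjusted p = 0.0510. The direction was kept in all 21.

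Ppp3ca also had the lowest unadjusted p among the members for the difference between the receptors. Its IgMG response exceeded the IgM response by 0.85 ± 0.27 (SE) on the log2 scale, with an interval of 0.25 to 1.45, an unadjusted p = 0.011 and an adjusted p = 0.414. Between stimulated cells the mean signal was 1315 ± 103 in IgMG cells and 816 ± 125 in IgM cells (SD, n = 2 each), without overlap. That log2 difference was 0.68 ± 0.19 (SE), with an unadjusted p = 0.00551 and an adjusted p = 0.238. Neither passed the threshold. With the Gapdh ratio as a covariate, the log2 difference between stimulated cells was 0.22 ± 0.23 (SE), with an adjusted p = 0.950. That ratio was 0.221 and 0.140 in IgMG cells with HEL, and 0.328 and 0.755 in IgM cells with HEL. The difference of the responses ran from 0.39 to 1.08 over 20 alternative analyses.

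Ppp3cb, the beta catalytic subunit, was dim and varied between replicates. It had signals of 95.9 and 69.9 in IgMG cells with HEL, 41.7 and 105.7 in unstimulated IgMG cells, 83.3 and 84.3 in IgM cells with HEL, and 123.8 and 69.4 in unstimulated IgM cells. The ranges of all 4 groups overlapped. Its log2 change was 0.23 ± 0.37 (SE) in IgMG cells, with an adjusted p = 0.778, and -0.13 ± 0.37 (SE) in IgM cells, with an adjusted p = 0.860.

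Of the IP3 receptors, Itpr2 was measured. Its brightest probe set, 101441_i_at, had signals of 724.3 and 876.1 in IgMG cells with HEL, against 1036.5 and 890.1 in unstimulated IgMG cells. In IgM cells it had 604.7 and 662.6 with HEL, against 1261.3 and 1068.5 without. Stimulated arrays lay below unstimulated ones for either receptor, with a smaller gap in IgMG cells. Itpr2 fell by 0.86 ± 0.17 (SE) on the log2 scale in IgM cells, with an interval of -1.24 to -0.48 and an adjusted p = 0.0115. In IgMG cells the log2 change was -0.27 ± 0.17 (SE), with an interval of -0.65 to 0.12 and an adjusted p = 0.407.

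For this probe set the 4 groups did not overlap, and their order was unstimulated IgM, unstimulated IgMG, IgMG with HEL and IgM with HEL. The IgMG response minus the IgM response was 0.59 ± 0.24 (SE) on the log2 scale, with an interval of 0.05 to 1.14, an unadjusted p = 0.0351 and an adjusted p = 0.465. The difference between the receptors therefore did not pass the threshold. Nor did the log2 difference between stimulated IgMG and IgM cells, 0.32 ± 0.17 (SE) with an adjusted p = 0.433, although those arrays did not overlap. The call in IgM cells was lost in 4 of 21 alternatives. Without the first unstimulated IgM array the adjusted p was 0.0940, and without the second IgM array with HEL it was 0.0530.

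No other probe set of Itpr2 was called, and 1 of the other 3 was tested. Probe set 101442_f_at was designed from the same source record and had signals of 201.1 and 152.8 in IgMG cells with HEL, 276.4 and 326.9 in unstimulated IgMG cells, 65.5 and 300.8 in IgM cells with HEL, and 199.2 and 199.1 in unstimulated IgM cells. It lay lower with HEL on both IgMG arrays, and the IgM arrays with HEL spread around the unstimulated ones. Its log2 change was -0.73 ± 0.50 (SE) in IgMG cells, with an adjusted p = 0.446, and -0.42 ± 0.50 (SE) in IgM cells, with an adjusted p = 0.629. With the 2 tested Itpr2 probe sets averaged, the log2 change in IgM cells was -0.64, with an adjusted p = 0.180. The remaining 2, 96420_at and 94565_at, had signals of 3.7 to 14.6 and 2.3 to 13.8 over the 8 arrays and were too dim to be tested.

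**Figure D3:**
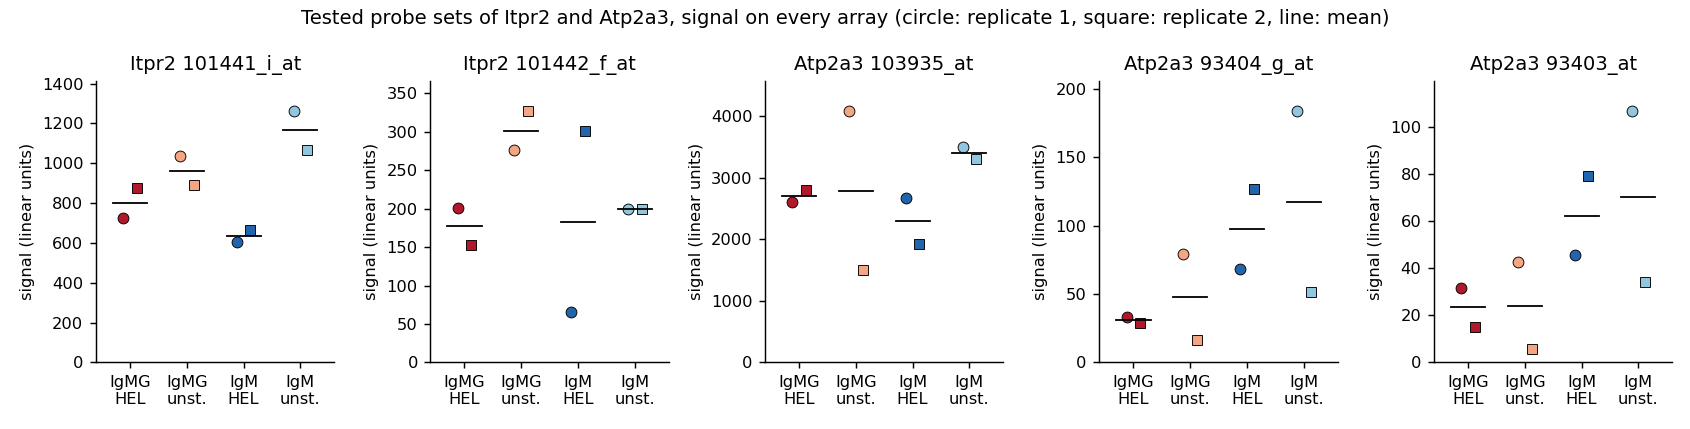
Signal, in linear units, of the tested probe sets of Itpr2 and Atp2a3 on every array, with a line at the mean of 2 arrays and a separate axis for each probe set. The stimulated IgM arrays lie lowest for Itpr2 101441_i_at and spread from 65.5 to 300.8 for 101442_f_at, and the Atp2a3 probe sets differ in brightness and in pattern.

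The SERCA pumps that refill the calcium store showed no call. Atp2a3, which encodes the SERCA3 pump of blood cells, had signals on probe set 103935_at of 2602.1 and 2806.3 in IgMG cells with HEL and 4086.0 and 1495.2 in unstimulated IgMG cells. In IgM cells it had 2681.3 and 1928.9 with HEL, against 3500.8 and 3301.7 without. The stimulated IgM arrays lay below the unstimulated ones, and the unstimulated IgMG arrays were the highest and the lowest of all 8. The log2 change was 0.13 ± 0.38 (SE) in IgMG cells, with an adjusted p = 0.889, and -0.58 ± 0.38 (SE) in IgM cells, with an adjusted p = 0.361.

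The sign for Atp2a3 in IgMG cells depended on 1 array. Its lowest signal was on the second unstimulated IgMG array, which also had the highest NK cell and myeloid marker sums. Without that array the log2 change in IgMG cells was -0.59, with an adjusted p = 0.140, and without the first unstimulated IgMG array it was 0.85, with an adjusted p = 0.0594. With both arrays that stand apart left out, the IgMG change was -0.59 with an adjusted p = 0.0496. The part of the marker sums in this was not tested. In IgM cells the change of -0.58 had an adjusted p = 0.0473 without the first unstimulated IgMG array and 0.0449 without the second, arrays that enter this comparison only through the shared estimate of the spread.

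The dim Atp2a3 probe sets, 93404_g_at and 93403_at, came from a single source record. Probe set 93404_g_at had signals of 33.0 and 29.0 in IgMG cells with HEL, 79.5 and 16.7 in unstimulated IgMG cells, 68.0 and 126.7 in IgM cells with HEL, and 183.8 and 51.6 in unstimulated IgM cells. Probe set 93403_at had 31.7 and 15.0 in IgMG cells with HEL, 42.5 and 5.8 in unstimulated IgMG cells, 45.6 and 79.0 in IgM cells with HEL, and 106.7 and 34.2 in unstimulated IgM cells. Both lay lower in IgMG cells than in IgM cells with HEL, a pattern that 103935_at did not have. The log2 difference between stimulated IgMG and IgM cells was -1.22 ± 0.59 (SE) for 93404_g_at, with an adjusted p = 0.401, and -0.99 ± 0.55 (SE) for 93403_at, with an adjusted p = 0.465. For 103935_at it was 0.25 ± 0.38 (SE), with an adjusted p = 0.802, so with HEL the probe sets of Atp2a3 disagreed in sign and none passed. Without HEL the log2 differences were -1.06 ± 0.59 (SE) for 93404_g_at, -1.14 ± 0.55 (SE) for 93403_at and -0.46 ± 0.38 (SE) for 103935_at. These had the same sign, but the arrays overlapped for each and the adjusted p was 0.995 for each.

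Atp2a2, which encodes the widely expressed SERCA2 pump, had signals of 63.4 and 63.4 in IgMG cells with HEL and 36.5 and 67.0 in unstimulated IgMG cells. In IgM cells it had 64.3 and 59.9 with HEL, against 38.4 and 52.8 without. The stimulated IgM arrays lay above the unstimulated ones, and the IgMG groups overlapped. The log2 change was 0.27 ± 0.27 (SE) in IgMG cells, with an adjusted p = 0.631, and 0.35 ± 0.27 (SE) in IgM cells, with an adjusted p = 0.441.

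Camk4, a calmodulin-dependent kinase, was too dim to be tested. Its signals were 12.6 and 25.3 in IgMG cells with HEL, 11.8 and 9.5 in unstimulated IgMG cells, 27.8 and 17.1 in IgM cells with HEL, and 16.7 and 21.1 in unstimulated IgM cells. The lowest mean signal of any tested probe set was 23.2, so these values lie where array noise is large.

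Between the receptors no member passed the threshold. For the difference of the HEL responses, 0 of 9 members and 0 of 7453 tested probe sets were called by limma, a background of 0%, with an unadjusted p under 0.05 for 2 members, Ppp3ca and Itpr2, and for 750 probe sets overall. With HEL, 0 of 9 members were called between IgMG and IgM cells, against 0.0134% of all tested probe sets, and 2 members, Ppp3ca and Nfatc1, had an unadjusted p under 0.05, as had 1037 overall. Without HEL, 0 of 9 members and 0% of all tested probe sets were called, with 0 members and 344 probe sets at an unadjusted p under 0.05. The IgMG and IgM arrays did not overlap for 5 of 9 members with HEL and 2 of 9 without, where the shares over all tested probe sets were 48.3% and 31.6%.

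The genes whose patterns over the 8 arrays were most like those of the called members were found by Pearson's r, which is a description since the arrays share their 4 groups. For Nfatc1 they were Marcksl1 with r = 0.999, Pprc1 with r = 0.996 and Phf23 with r = 0.995. Marcksl1, a relative of the protein kinase C substrate MARCKS, had mean signals of 914 in IgMG cells with HEL, 91.5 in unstimulated IgMG cells, 1252 in IgM cells with HEL and 110 in unstimulated IgM cells. For Ppp3ca they were Hif1a, the oxygen-regulated transcription factor subunit, with r = 0.988, Pdcd4, an inhibitor of translation, with r = 0.983, and Ptbp3, an RNA-binding protein gene, with r = 0.976. Pdcd4 had mean signals of 861 in IgMG cells with HEL and 765 in unstimulated IgMG cells, and of 487 in IgM cells with HEL and 895 in unstimulated IgM cells. For Itpr2 they were Chchd10, Trim11 and Mx1, with r = 0.985, 0.980 and 0.976.

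The other genes of the pathway were described from lists of its steps, leaving the list of known NFAT targets aside at first. Rcan1, which is on that list and also among the calcineurin regulators, was counted in both. Of 83 listed genes 50 had a probe set and 36 were tested. In IgMG cells 2 of the 36 rose with HEL and 0 fell, with a median log2 change of -0.00. In IgM cells 2 rose and 0 fell, with a median of 0.04. Each count is 5.56% of the 36, close to the 5.39% called among all tested probe sets in IgMG cells and below the 14.0% in IgM cells. The IgMG count was 0 with either stimulated IgMG array left out and with the Gapdh ratio as a covariate, and 1 with any single IgM array left out.

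The genes that rose were P2rx4 in cells of either receptor, Marcks in IgMG cells and Inpp5d in IgM cells. P2rx4, an ATP-gated channel that passes calcium, had signals of 517.8 and 636.7 in IgMG cells with HEL, against 244.8 and 203.6 in unstimulated IgMG cells, and 523.2 and 485.3 in IgM cells with HEL, against 144.4 and 238.3 in unstimulated IgM cells. All arrays with HEL lay above all without, and the log2 rise was 1.30 ± 0.24 (SE) in IgMG cells, with an adjusted p = 0.0185, and 1.36 ± 0.24 (SE) in IgM cells, with an adjusted p = 0.00725. Marcks, which encodes a calmodulin-binding kinase substrate, rose by 1.43 ± 0.33 (SE) in IgMG cells, with an adjusted p = 0.0412, and in IgM cells had a log2 change of 1.11 ± 0.33 (SE) with an adjusted p = 0.0552. Inpp5d, which encodes the inhibitory lipid phosphatase SHIP1, had a log2 change of 0.55 ± 0.18 (SE) in IgMG cells, with an adjusted p = 0.116, and rose by 1.22 ± 0.18 (SE) in IgM cells, with an adjusted p = 0.0036. The sign in IgMG cells was reversed on its other probe set.

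Upstream of calcium release, 8 genes of phospholipase C and IP3 turnover were tested, and their median log2 change was 0.15 in IgMG cells and 0.15 in IgM cells. Plcg2, the phospholipase C of B cells, had signals of 1086.4 and 891.2 in IgMG cells with HEL, 1133.7 and 1226.3 in unstimulated IgMG cells, 947.7 and 925.2 in IgM cells with HEL, and 1188.9 and 994.3 in unstimulated IgM cells. Stimulated arrays lay below unstimulated ones for either receptor, by a log2 difference of -0.26 ± 0.16 (SE) in IgMG cells and -0.21 ± 0.16 (SE) in IgM cells, with adjusted p = 0.399 and 0.427. Itpkb, the kinase that turns IP3 into a tetrakisphosphate, had signals of 901.7 and 857.8 in IgMG cells with HEL, against 608.5 and 444.2 in unstimulated IgMG cells, and 728.1 and 606.7 in IgM cells with HEL, against 490.9 and 532.3 in unstimulated IgM cells. Its log2 change was 0.74 ± 0.19 (SE) in IgMG cells, with an adjusted p = 0.0551, and 0.37 ± 0.19 (SE) in IgM cells, with an adjusted p = 0.231.

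Among 8 tested channels and sensors, the median log2 change was -0.11 in IgMG cells and 0.11 in IgM cells. Stim1, the calcium sensor of the reticulum, had a log2 change of -0.02 ± 0.28 (SE) in IgMG cells and -0.31 ± 0.28 (SE) in IgM cells, with adjusted p = 0.982 and 0.499. Orai1, the channel it opens, had no probe set with a single symbol and was not analysed here. The 4 tested genes of other pumps, exchangers and buffers had medians of -0.13 in IgMG cells and -0.03 in IgM cells, and none passed in either.

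Around calcineurin, 5 tested subunits and regulators had a median log2 change of -0.17 in IgMG cells and -0.40 in IgM cells, and 0 passed. Ppp3r1, the regulatory subunit that binds the products of Ppp3ca and Ppp3cb, had signals of 439.3 and 376.6 in IgMG cells with HEL, against 458.5 and 459.0 in unstimulated IgMG cells, and 405.0 and 271.8 in IgM cells with HEL, against 466.6 and 530.6 in unstimulated IgM cells. The stimulated arrays lay below the unstimulated ones for either receptor, but the log2 changes of -0.17 ± 0.21 (SE) in IgMG cells and -0.56 ± 0.21 (SE) in IgM cells had adjusted p = 0.701 and 0.109. Rcan1, a calcineurin inhibitor that is itself known as an NFAT target, had signals of 76.4 and 54.6 in IgMG cells with HEL, against 106.5 and 128.5 in unstimulated IgMG cells, and 60.8 and 54.9 in IgM cells with HEL, against 75.3 and 113.0 in unstimulated IgM cells. It lay lower with HEL for either receptor, at log2 changes of -0.72 ± 0.25 (SE) in IgMG cells and -0.56 ± 0.25 (SE) in IgM cells, with adjusted p = 0.129 and 0.178.

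The other NFAT factor genes tested, Nfatc2 and Nfatc3, were called in neither kind of cell. The 8 tested NFAT factors and kinases other than Nfatc1 had a median log2 change of 0.11 in IgMG cells and -0.19 in IgM cells, and 0 passed. Nfatc2 had signals of 59.6 and 81.2 in IgMG cells with HEL, 81.6 and 94.6 in unstimulated IgMG cells, 60.7 and 102.7 in IgM cells with HEL, and 83.8 and 71.3 in unstimulated IgM cells, with log2 changes of -0.28 ± 0.26 (SE) in IgMG cells and 0.03 ± 0.26 (SE) in IgM cells. Nfatc3 had 231.6 and 236.3 in IgMG cells with HEL, 59.1 and 217.8 in unstimulated IgMG cells, 241.2 and 201.5 in IgM cells with HEL, and 328.9 and 319.9 in unstimulated IgM cells. For Nfatc3 the arrays with HEL lay above those without in IgMG cells and below them in IgM cells. Its signal on the first unstimulated IgMG array was far below the rest. The log2 changes of Nfatc3 were 0.92 ± 0.42 (SE) in IgMG cells and -0.53 ± 0.42 (SE) in IgM cells, with adjusted p = 0.246 and 0.458.

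Genes known as NFAT targets in lymphocytes rose in cells of either receptor. Of 19 listed genes 17 had a probe set and 11 were tested. In IgMG cells 8 of the 11 rose and 0 fell, or 72.7%, and in IgM cells 9 rose and 0 fell, or 81.8%. Of all tested probe sets 3.10% rose in IgMG cells and 6.70% in IgM cells. With either stimulated IgMG array left out, 5 of the 11 were called in IgMG cells. The median log2 change of the 11 was 1.49 in IgMG cells and 3.69 in IgM cells. Many of these genes also answer to other signals of the receptor. Earlier results of these data were known when the list was written, so its count is no independent measure of NFAT activity. The brightness filter also favours genes that rise, since it used the mean over all 8 arrays. Ccl4, at 3.1 to 23.7 without HEL, and Cd5, at 5.6 to 22.8, entered through their arrays with HEL. Ccl3, at 6.4 to 49.1 without HEL, and Egr2, at 18.2 to 38.3, were also dim there. With no filter, 9 of 17 targets rose in IgM cells. Il2, Il2ra, Il4, Ifng, Cd40lg and Fasl, which are mainly T cell targets, were too dim to be tested.

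**Figure D4:**
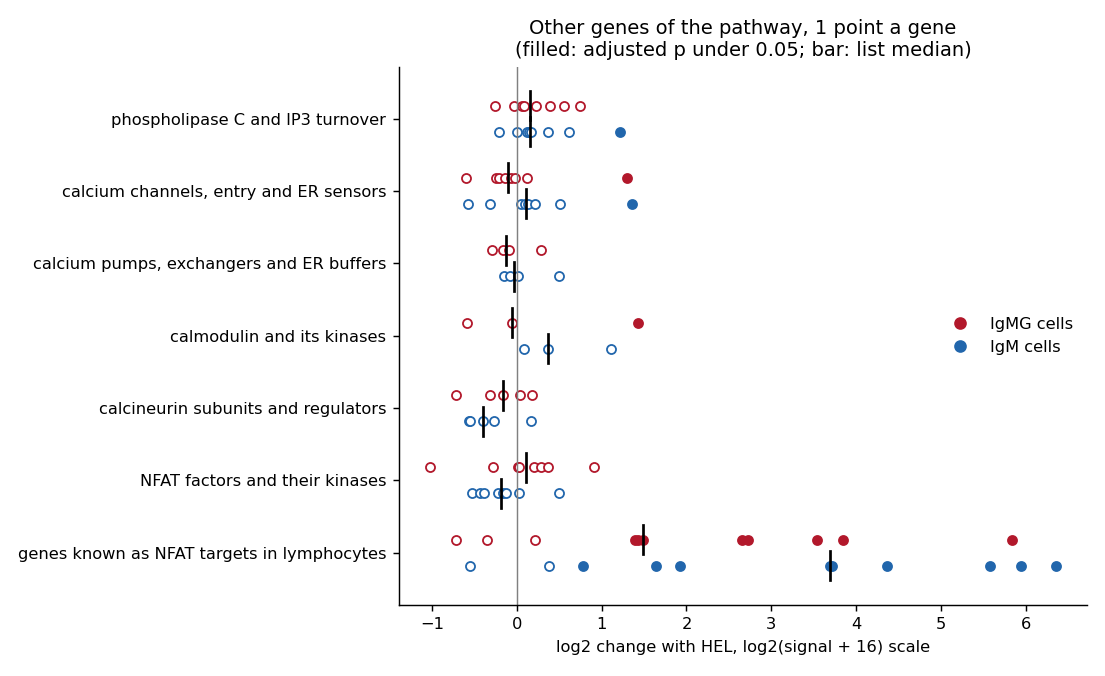
Log2 change with HEL of the tested genes of 7 pathway lists in IgMG cells and in IgM cells, with filled points where the adjusted p was under 0.05 and a bar at each list's median. The NFAT targets spread to high values, with medians of 1.49 in IgMG cells and 3.69 in IgM cells, and the medians of the other 6 lists lie between -0.40 and 0.37.

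The cytokine genes whose promoters are printed above were among them. Tnf had signals of 191.8 and 201.0 in IgMG cells with HEL, against 53.4 and 74.2 in unstimulated IgMG cells, and 246.7 and 345.8 in IgM cells with HEL, against 74.4 and 57.2 in unstimulated IgM cells. It rose by 1.42 ± 0.23 (SE) in IgMG cells and 1.92 ± 0.23 (SE) in IgM cells on the log2 scale. Ccl3 had signals of 113.6 and 121.0 in IgMG cells with HEL, against 18.6 and 49.1 in unstimulated IgMG cells, and 482.3 and 605.9 in IgM cells with HEL, against 16.8 and 6.4 in unstimulated IgM cells. Its log2 rise was 1.49 ± 0.32 (SE) in IgMG cells and 4.36 ± 0.32 (SE) in IgM cells, and the stimulated groups did not overlap for either gene. Of the 9 targets that rose in IgM cells 7 had a promoter window, and 3 of the 7 held GGAAA or TTTCC, against 55.6% of all windows.

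The transcription factor genes Egr2, Irf4, Myc and Nr4a1 rose in cells of either receptor. Ikzf1, which encodes the lymphoid factor Ikaros and was singled out after its values were seen, had signals of 57.0 and 33.9 in IgMG cells with HEL, 29.6 and 113.3 in unstimulated IgMG cells, 58.4 and 186.1 in IgM cells with HEL, and 96.9 and 62.6 in unstimulated IgM cells, and it was called in neither. Egr2 had signals of 2504.7 and 2288.3 in IgMG cells with HEL, against 18.2 and 36.1 in unstimulated IgMG cells, and 3683.1 and 3692.4 in IgM cells with HEL, against 21.6 and 38.3 in unstimulated IgM cells. Irf4 rose by 2.73 ± 0.17 (SE) in IgMG cells and 3.72 ± 0.17 (SE) in IgM cells on the log2 scale, Myc by 3.54 ± 0.22 (SE) in IgMG cells and 3.69 ± 0.22 (SE) in IgM cells, and the nuclear receptor gene Nr4a1 by 3.84 ± 0.35 (SE) in IgMG cells and 5.57 ± 0.35 (SE) in IgM cells. Cd5, a surface inhibitor of receptor signals, rose by 1.39 ± 0.29 (SE) in IgMG cells and 1.64 ± 0.29 (SE) in IgM cells. The cell cycle kinase gene Cdk4 had a log2 change of 0.21 ± 0.17 (SE) in IgMG cells, with an adjusted p = 0.506, and rose by 0.78 ± 0.17 (SE) in IgM cells, with an adjusted p = 0.0163. A second Cdk4 probe set ran the opposite way in IgMG cells.

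Whether the targets responded differently to the receptors was tested gene by gene. The count of signs is a description, since the genes share the 8 arrays and were listed with earlier results of these data known. Genes such as Ccl4 were dim without HEL and entered the test through the arrays with HEL, where IgM cells had the higher signals. For 11 of the 11 the IgMG response minus the IgM response was below 0, with a median of -0.57 on the log2 scale, and 51.3% of all tested probe sets were below 0. Of the 11, 0 passed the threshold for that difference; 3 passed when the first unstimulated IgMG array was left out, 1 when the second was, and 1 when the first unstimulated IgM array was. Between stimulated cells 1 of the 11 was called, the chemokine gene Ccl4. It had signals of 205.4 and 228.4 in IgMG cells with HEL and 1471.9 and 1703.5 in IgM cells with HEL. The log2 difference was -2.78 ± 0.28 (SE) with an adjusted p = 0.0358, and Ccl4 was the one called among all 7453 probe sets. On all arrays, the call was lost with an offset of 1, no filter, no trend, the Gapdh ratio as a covariate or an adjusted p under 0.01. With any 1 of the 4 stimulated arrays left out, 0 of the 11 were called.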

How the data were processed

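RNA of sorted follicular B cells was measured on 8 arrays, with groups and replicate numbers taken from the sample titles. The values the authors deposited are linear intensities, 1 for every probe set on every array, made with MAS5 per the submitters' processing notes. Each array had a mean of about 150.1 after trimming 2% at each end, so a change in total RNA would not be seen. Neither further settings nor a genome build are given in the sources used here.

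Symbols came from the 2016 platform annotation: 10833 probe sets carried a single symbol, 396 carried several and 1193 carried none. All 12 member probe sets matched the GRCm38.p6 gene table by gene identifier, with no symbol changed. After 66 control probe sets were left out, log2(signal + 16) was tested for the brightest 60% by mean, 7453 of 12422, with limma 3.58.1 in R 4.3.3: 1 mean for each of the 4 groups, a trended eBayes step (4 residual and 4.87 prior degrees of freedom), two-sided, Benjamini-Hochberg adjustment over all tested, threshold 0.05. With 2 arrays a group, the smallest p of an exact permutation test is 0.333. The number of arrays limits the precision. A gene was summarised by its brightest probe set. Errors are SEs of the fit or SDs of 2 arrays.

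The genes named were every member, the 12 list genes with the smallest adjusted p among those called in either HEL response, a set always named (Nfatc2, Nfatc3, Rcan1, Stim1, Orai1, Plcg2, Itpkb, Ppp3r1 and an item not reported here), and the 3 genes most correlated with each called member. The cell type markers Cd3e, Zap70, Hba-a1, Cd1d1, Dtx1 and Notch2, and Ikzf1, Gapdh and the dim NFAT targets were named to account for counts or sums, after their values were seen. Members, lists and tests were chosen with earlier results of these data known. The scripts were checked on simulated data. Plots used matplotlib 3.10.9 and Python 3.11.15.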

Additional observations from a re-analysis of the deposited data

How the results depend on the processing

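Each result was recomputed under 19 to 22 alternatives: other offsets, scalings and filters, no trend, fewer arrays in the fit, a replicate block, a stricter threshold, averaged probe sets, the Gapdh ratio as a covariate and each array left out, where the lone array left in a group is assumed to vary like the others. The list counts, a crossed replicate block and a fit without the pair of arrays that stand apart were chosen after seeing the data. The Nfatc1 rise was called under all 21, at 2.49 to 2.79 in IgMG cells and 2.84 to 3.14 in IgM cells on the log2 scale. The IgM call of Ppp3ca was lost in 12 of 21 and that of Itpr2 in 4 of 21. Members called in IgM cells numbered 1 at an adjusted p under 0.01 and 1 to 4 with single arrays left out, and in IgMG cells 2 with both arrays that stand apart left out. The causes were not tested.

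Signs turned only for log2 values that had not been called. With single arrays left out, Nfatc1 without HEL ran from -0.25 to 0.049 between IgMG and IgM cells. Ppp3ca ran from -0.090 to 0.37 for the IgMG response and -0.40 to 0.063 between receptors without HEL. Ppp3cb ran from -0.31 to 0.76 for the IgMG response, -0.49 to 0.22 for the IgM response, -0.18 to 0.90 for their difference, -0.22 to 0.17 with HEL and -0.92 to 0.16 without. Atp2a2 ran from -0.064 to 0.60 for the IgMG response, -0.42 to 0.25 for the difference, -0.016 to 0.065 with HEL and -0.22 to 0.44 without. Atp2a3 ran from -0.59 to 0.85 for the IgMG response, -0.017 to 1.42 for the difference and -1.18 to 0.26 without HEL. With both arrays that stand apart left out, the IgMG response was -0.090 for Ppp3ca and -0.59 for Atp2a3, the difference was 0.20 for Atp2a2 and -0.25 for Atp2a3, Atp2a2 with HEL was -0.016, and without HEL Nfatc1 was 0.042, Ppp3ca 0.063, Atp2a2 -0.22 and Atp2a3 0.26. With the Gapdh covariate, the IgMG response was -0.11 for Ppp3ca and -0.36 for Atp2a3, the difference was 0.031 for Atp2a2 and -0.20 for Atp2a3, and with HEL Ppp3cb was 0.77 and Atp2a3 -0.67. With probe sets averaged, Atp2a3 was -0.0059 for the IgMG response and -0.66 with HEL, and Itpr2 was 0.14 without HEL.

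Calls over all probe sets ranged from 58 to 536 in IgMG cells, against 402, and from 341 to 1278 in IgM cells, against 1041. In IgMG cells they were 163 with the covariate or with only that comparison's arrays, 256 with no filter, 231 with no trend, 99 at an adjusted p under 0.01, 93 and 58 without the first and the second IgMG array with HEL, and 266 without the second unstimulated IgM array. In IgM cells they were 603 with the covariate, 375 at an adjusted p under 0.01, 341 and 501 without the first and the second unstimulated array, and 358 without the second array with HEL. Receptor comparisons gave 0 to 13 for the difference, 0 to 6 with HEL and 0 to 32 without. NFAT targets called numbered 5 to 8 in IgMG cells and 7 to 9 in IgM cells, 0 to 3 for the difference and 0 to 2 with HEL, and other pathway genes 0 to 3 in IgMG cells and 2 to 3 in IgM cells.

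The replicate numbers are the experiment numbers of the sample titles. Deviations of arrays with the same number correlated at -0.16 to 0.02, so no strong shared effect was seen. Such correlations cannot show whether the experiments were paired, and the labels do not say. The replicate block gave 1 member call in IgMG cells and 2 in IgM cells, with 273 and 869 calls over all probe sets. With the numbers of the unstimulated IgMG arrays crossed, 0 probe sets were called between receptors without HEL.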
